A study of Mus musculus with 6 samples.

Results

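The imprinted Dlk1-Meg3 locus of the mouse was followed in single alveolar epithelial cells through 4 of its genes, Dlk1, Meg3, Rian and Mirg, out of 52636 genes in the deposited matrix. Ensembl IDs of the matrix were matched to GENCODE symbols for GRCm38. The genes were chosen by their levels and co-detection in these same cells, by library and by Retnla content, so those values are a description and carry no test.

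By their labels, the 3 expression libraries have no replicates. One is of alveolar type II (ATII) cells sorted fresh from lung (day 0, young plus old mice), one of a day 13 culture from young plus old mice, and one of a day 13 culture from young mice alone. All are given the genotype IL4Ra WT and the treatment "mixed sample", and 3 further libraries hold the multiplexing tags. Cultures were alveolarspheres, hollow balls of epithelium grown without serum or feeder cells, which received 10 ng/ml of an interleukin or PBS from day 3. That interleukin is IL-4 by the title of the series, but carries a different number in its design text. Barcodes of the matrix carry 3 library tokens that match no label, and 0 of its features are tags. They are named library A, library B and library C here by order of appearance, and no cell was assigned to a day, an age, a mouse or a treatment. By the labels mice and treatments are mixed within libraries, so nothing below compares treatments, ages or days, and libraries are not set against each other by a fold or a test.

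Imprinted genes are read from only the maternal or only the paternal copy. At this locus the paternal copy gives Dlk1, a membrane protein with EGF-like repeats related to the Notch ligands, and the maternal copy gives the long noncoding RNAs Meg3, Rian and Mirg, which lie head to tail on the same strand. Rian carries small nucleolar RNAs, and microRNAs are processed from the maternal transcripts. The locus is active in the fetus and is mostly quiet in adult tissues; in the lung, Dlk1 has been tied to the control of Notch signalling while ATII cells turn into alveolar type I (ATI) cells. Retnla, which encodes a secreted protein induced by IL-4 through the factor STAT6, served to order the cells.

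In GRCm38 all 4 genes lie on the plus strand of chromosome 12. Dlk1 (ENSMUSG00000040856), protein-coding, spans chr12:109452823-109463336. Meg3 (ENSMUSG00000021268) spans chr12:109541001-109571726, Rian (ENSMUSG00000097451) chr12:109603940-109661716 and Mirg (ENSMUSG00000097391) chr12:109729764-109749460; the 3 are annotated as noncoding. Rtl1, a paternal gene derived from a retrotransposon, lies on the minus strand between Meg3 and Rian at chr12:109589193-109600330. Whether the counting used strand is not given in the sources used here, so reads of Rtl1 and of an antisense transcript cannot be told apart. The annotated spans of Meg3, Rian and Mirg do not overlap one another.

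The start regions of Dlk1, of Meg3 and of Retnla are shown because the first pair are the protein and RNA ends of the locus and Retnla orders the cells. Each sequence runs 5′ to 3′ from 250 bases before to 50 bases after the transcription start given by RefSeq (GRCm38.p6), and capitals mark motif matches.
Dlk1 promoter, chr12:109452573-109452872, + strand: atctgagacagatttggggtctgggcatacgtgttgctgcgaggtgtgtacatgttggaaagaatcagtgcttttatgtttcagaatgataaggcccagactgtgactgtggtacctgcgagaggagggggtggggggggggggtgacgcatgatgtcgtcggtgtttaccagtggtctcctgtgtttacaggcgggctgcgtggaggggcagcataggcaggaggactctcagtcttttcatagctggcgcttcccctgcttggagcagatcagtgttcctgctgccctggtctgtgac
Meg3 promoter, chr12:109540746-109541045, + strand: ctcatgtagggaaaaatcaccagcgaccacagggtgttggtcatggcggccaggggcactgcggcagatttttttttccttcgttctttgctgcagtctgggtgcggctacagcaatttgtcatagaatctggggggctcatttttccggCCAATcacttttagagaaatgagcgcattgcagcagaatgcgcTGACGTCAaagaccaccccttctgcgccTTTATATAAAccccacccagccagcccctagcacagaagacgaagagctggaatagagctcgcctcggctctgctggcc
Retnla promoter, chr16:48842359-48842658, + strand: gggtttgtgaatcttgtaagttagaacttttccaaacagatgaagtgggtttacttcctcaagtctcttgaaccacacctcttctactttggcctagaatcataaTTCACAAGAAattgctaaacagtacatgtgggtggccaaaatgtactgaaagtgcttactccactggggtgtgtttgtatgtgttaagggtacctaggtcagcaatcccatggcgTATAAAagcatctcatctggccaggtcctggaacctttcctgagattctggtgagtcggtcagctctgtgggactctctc
A set of 4 motifs was searched on both strands: the STAT6 type of site TTCNNNNGAA, the cAMP response element TGACGTCA, the TATA box TATAAA and the CCAAT box CCAAT. The window of Retnla holds a STAT6 type of site starting at -145 from the start base, and a TATA box at -30. The Meg3 window holds a cAMP response element at -57 and a CCAAT box at -100, and the capital run after them holds TATAAA on each strand, overlapping. In the Dlk1 window none of the 4 was found. Among 32851 RefSeq promoters of this length 6.95% hold the STAT6 type of site, 1.79% the cAMP response element, 13.6% the TATA box and 37.4% the CCAAT box. CpG pairs, the targets of DNA methylation in imprinting, numbered 13 in the Meg3 window and 9 in the Dlk1 window, against a median of 7. The window of Rian, not printed, held 0 of the motifs and 0 CpG pairs.

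From the start of Meg3 to the end of Mirg RefSeq lists 54 microRNA hairpins and 105 mature microRNAs on the plus strand. Of the listed hairpins, 1 lies inside the annotated span of Meg3, 3 in that of Rian and 14 in that of Mirg. The pairs below share a seed (bases 2 to 8, in capitals), the part of a microRNA that pairs with its targets, and include products of Rian (miR-370) and of Mirg (miR-410, miR-453 and miR-496a).
mmu-miR-370-5p: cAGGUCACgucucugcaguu
mmu-miR-1193-3p: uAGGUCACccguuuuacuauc
mmu-miR-494-5p: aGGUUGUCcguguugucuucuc
mmu-miR-410-5p: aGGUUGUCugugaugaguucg
mmu-miR-453: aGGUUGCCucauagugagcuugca
mmu-miR-496a-5p: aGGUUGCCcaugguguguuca
mmu-miR-379-3p: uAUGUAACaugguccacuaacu
mmu-miR-411-3p: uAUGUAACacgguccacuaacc
In all, 8 seeds are shared by a pair of mature microRNAs, and no seed by more than 2. The 3′ libraries say little about these products: of 66 annotated microRNA genes in the stretch 4 held any UMI, 10 UMIs in all, and of 23 annotated small nucleolar RNA genes 6 held one. The values below are those of the long host transcripts.

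After filtering, libraries A, B and C held 16367, 5593 and 14580 cells with medians of 3749, 8349 and 3341 UMIs per cell. Among these kept cells the same barcode sequence occurred in libraries A and B 20 times, in A and C 67 times and in B and C 22 times. ATII markers such as Sftpc were abundant in each library, the 10 markers summing to 335724, 157720 and 136850 UMIs per 1000000 (CPM). Defining markers of 3 cell types known for an active locus in other tissues were close to 0. Fibroblast markers summed to between 0.0628 and 0.131 CPM, neuroendocrine markers to between 0.281 and 1.16 CPM, and smooth muscle or pericyte markers to between 0.698 and 2.12 CPM over the 3 libraries. In library A endothelial markers summed to 88.9 CPM, of which Pecam1 gave 88.7, and ciliated markers to 87.4 CPM, of which Sec14l3 gave 82.6. In libraries B and C endothelial markers summed to 0.863 and 1.11 CPM and ciliated markers to 1.40 and 4.89 CPM. Immune markers summed to between 7.48 and 9.59 CPM. Fewer expressing cells and less RNA per cell cannot be told apart in a summed level, so levels are given with the share of cells that held a UMI.

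Meg3 was the most abundant of the 4 transcripts in each library, with 8.25 CPM in library A (525 UMIs, interval 7.56 to 8.98), 309 CPM in library B (15028 UMIs, interval 304 to 314) and 181 CPM in library C (9667 UMIs, interval 178 to 185). Rian, the next noncoding RNA downstream, held 2.20, 38.5 and 28.3 CPM, and Mirg, the most distal, 0.189, 5.03 and 3.75 CPM. The 3 noncoding RNAs thus stood in the same order in the 3 libraries, and their intervals did not overlap within a library. Counts of 3′ ends do not scale with transcript length, but priming inside long transcripts may differ between genes, so the order is one of counts.

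**Figure D1:**
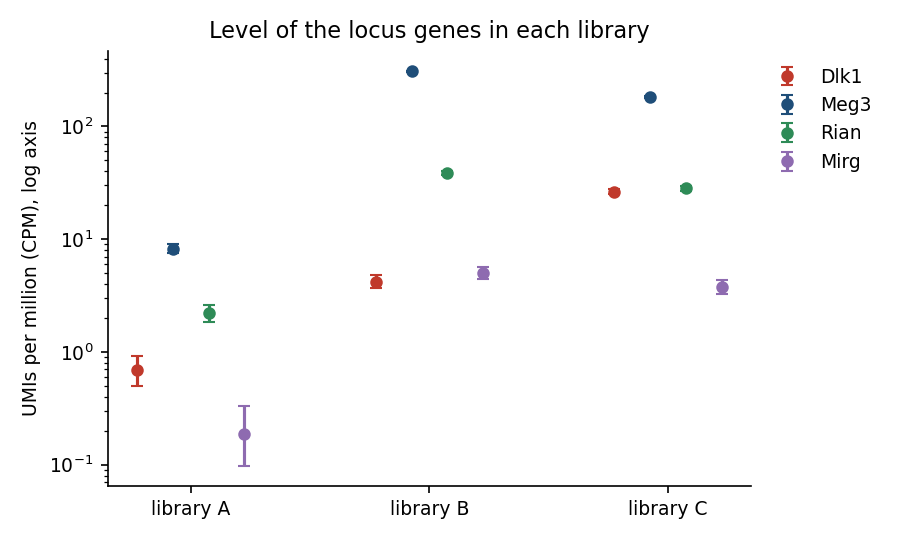
Summed level of Dlk1, Meg3, Rian and Mirg in libraries A, B and C, in UMIs per 1000000 (CPM) on a log axis; points are values of 1 library and bars are exact 95% Poisson intervals for counting error. Meg3 is the highest point in each library, and Dlk1 lies at 4.21 CPM in library B, near Mirg, and at 26.3 CPM in library C, near Rian.

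Dlk1 held 0.691 CPM in library A (44 UMIs, interval 0.502 to 0.928), 4.21 CPM in library B (205 UMIs, interval 3.65 to 4.83) and 26.3 CPM in library C (1405 UMIs, interval 24.99 to 27.8). Per 100 UMIs of Meg3 that was 8.38 Dlk1 UMIs in library A (interval 6.02 to 11.4), 1.36 in library B (interval 1.18 to 1.57) and 14.5 in library C (interval 13.7 to 15.4). Rian, by the same measure, gave 26.7 (interval 22.0 to 32.2), 12.5 (interval 11.9 to 13.1) and 15.6 UMIs (interval 14.8 to 16.5), and Mirg 2.29, 1.63 and 2.07. The intervals cover counting error only and take UMIs as independent. In library A, 3 cells with 20, 10 and 9 UMIs held 88.6% of the 44 Dlk1 UMIs, so its interval is too narrow for so few cells. All these ratios are values of single libraries of unknown group, and what the libraries differ in was not tested.

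Cells with Dlk1 were few, and a minority of them held most of its UMIs. A UMI of Dlk1 was found in 8 cells of library A (0.0489%), 61 of library B (1.09%, 0.835 to 1.40%) and 434 of library C (2.98%, 2.71 to 3.27%), and the highest cell held 20, 25 and 26 UMIs. In library C, 178 cells with 3 or more UMIs held 75.3% of all Dlk1 UMIs, and in library B 20 such cells held 76.6%. Exactly 1 UMI was held by 34 of the 61 cells and by 165 of the 434. A cell with Dlk1 held on average 3.36 UMIs of it in library B and 3.24 in library C. Rian, at a level like that of Dlk1 in library C, was instead found in 7.85% of the cells there, with 1.32 UMIs per positive cell and 14.9% of its UMIs in cells with 3 or more. The 2 transcripts of similar summed level were thus spread differently over the cells.

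Meg3 was found in 1.10% of cells of library A, with an interval of 0.946 to 1.27%. Its share was 51.1% in library B (49.8 to 52.5%) and 23.6% in library C (22.9 to 24.3%). With each cell thinned to 2000 UMIs the shares were 0.778%, 29.5% and 17.95%, and for Dlk1 0.0332%, 0.467% and 2.33%. For Meg3 the shares of libraries B and C lay closer together after thinning. The order of the libraries by share stayed as in the summed levels. Mirg, the scarcest, was seen in 11, 218 and 192 cells.

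Within libraries B and C the cells were then placed in 5 bins by the share of their UMIs that came from Retnla. The bins under 0.1%, from 0.1 to 0.5%, from 0.5 to 1%, from 1 to 3% and at 3% and over held 1567, 788, 928, 1855 and 455 cells in library B. The same bins of library C held 6018, 524, 443, 2555 and 5040 cells. A bin is a range and not a cell type: 284 and 1359 cells of library B lay within 1.5-fold of the bounds at 0.1% and at 1%, and 561 and 788 cells of library C. Median depth moved with the bins, from 6468 UMIs per cell in the lowest to 9379 in the 1 to 3% bin of library B, and from 3122.5 to 3660 UMIs between the lowest and highest bins of library C.

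In the lowest bin of library B Meg3 stood at 75.0 CPM, and the 4 bins above it read 318, 381, 414 and 299.96 CPM. In library C it stood at 33.5 CPM and then at 203, 266, 280.5 and 279 CPM. The widest step lay between cells under 0.1% and cells from 0.1 to 0.5%. A smaller one to the 0.5 to 1% bin had intervals apart, 305 to 332 and 369 to 394 CPM in library B and 182 to 227 and 241 to 294 CPM in library C. From 0.5% upward the intervals of library C overlapped, with 271 to 286 CPM in the highest bin. In library B the highest bin lay below the 1 to 3% bin, with intervals of 284 to 317 and 405 to 424 CPM. The share of cells with a UMI of Meg3 went the same way, from 21.1% in the lowest bin of library B to 66.0% in the 1 to 3% bin, and from 5.60% in the lowest bin of library C to 37.4% in the highest. Thinned to 2000 UMIs these shares were 9.38% and 40.1%, and 3.97% and 27.7%.

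**Figure D2:**
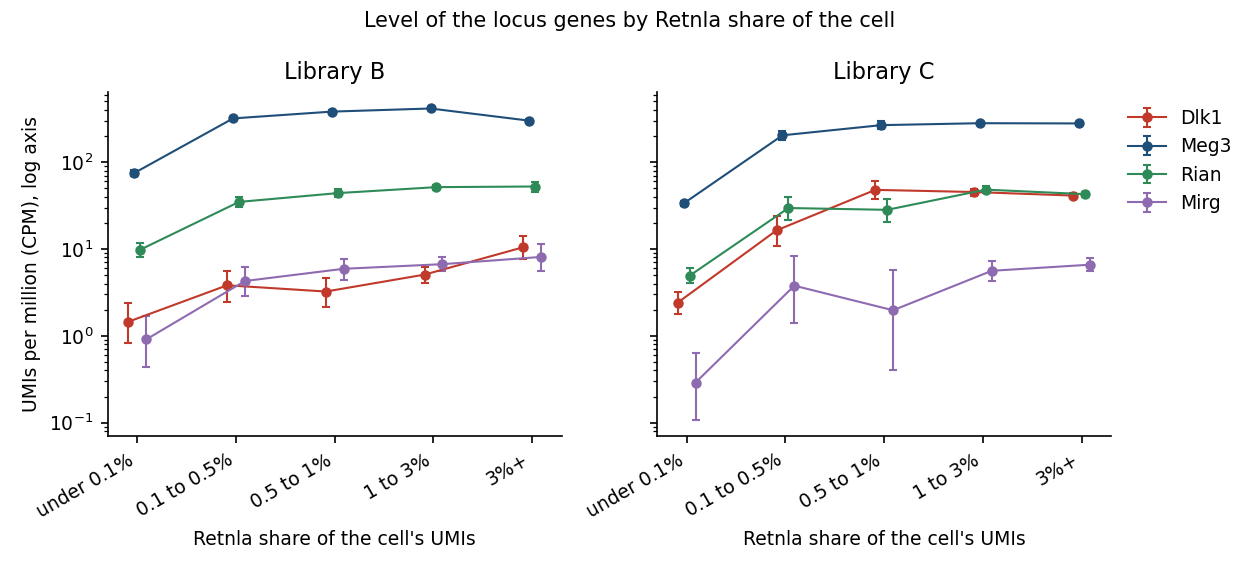
Summed level of the 4 transcripts, in UMIs per 1000000 (CPM) on a log axis, in cells binned by the share of their UMIs from Retnla, for library B and library C; bars are exact 95% Poisson intervals. The noncoding RNAs keep their order in every bin, and Dlk1 lies near Mirg in library B and near Rian from the 0.5 to 1% bin upward in library C.

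Rian too had its widest step out of the lowest bin. It read 9.82, 34.8, 44.0, 51.5 and 52.4 CPM in library B and 4.93, 29.6, 28.2, 48.2 and 42.8 CPM in library C. Above that step Rian departed from Meg3. In library C its intervals were apart between the 0.5 to 1% and 1 to 3% bins, 20.4 to 38.0 and 44.0 to 52.8 CPM. In library B its highest bin did not lie below the 1 to 3% bin. Mirg went from 0.909 to 8.09 CPM in library B and from 0.290 to 6.60 CPM in library C between the lowest and highest bins. Dlk1 held 1.45, 3.82, 3.24, 5.07 and 10.5 CPM in library B. Of the 44 UMIs in that highest bin of library B (9 cells with Dlk1), 25 lay in 1 cell; without this cell the bin read 4.54 CPM (interval 2.73 to 7.08), which overlaps the 3 bins before it. In library C it held 2.42, 16.4, 47.9, 45.3 and 41.2 CPM, and there the upper 3 bins overlapped.

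Both Rian and Dlk1 were also counted relative to Meg3. Rian per 100 UMIs of Meg3 ranged from 10.9 (interval 9.49 to 12.5) to 17.5 (interval 15.1 to 20.2) over the bins of library B, and from 10.6 to 17.2 in library C. Dlk1 per 100 UMIs of Meg3 ranged from 0.848 (0.5 to 1% bin) to 3.49 (highest bin) in library B, where the highest bin read 1.51 (interval 0.906 to 2.37) without the cell with 25 UMIs. It ranged from 7.22 in the lowest bin to 17.98 in the 0.5 to 1% bin of library C. No class of cells known to lack the locus transcripts was found in these libraries, so a background share was not measured.

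For a single summary, cells with at least 1% Retnla (2310 in library B, 7595 in library C) were set against cells under 0.1% (1567 and 6018). Meg3 read 393 against 75.0 CPM in library B, a 5.24-fold ratio (interval 4.87 to 5.63), and 279 against 33.5 CPM in library C, 8.34-fold (interval 7.72 to 9.03). Rian read 51.7 against 9.82 CPM, 5.26-fold (interval 4.32 to 6.47), and 44.6 against 4.93 CPM, 9.04-fold (interval 7.39 to 11.2). Rian and Meg3 gave ratios whose intervals overlapped in each library. Dlk1 read 6.09 against 1.45 CPM in library B, 4.19-fold (135 and 16 UMIs, interval 2.49 to 7.54), and 42.5 against 2.42 CPM in library C, 17.6-fold (1256 and 50 UMIs, interval 13.3 to 23.9). Mirg read 6.95 against 0.909 CPM in library B and 6.27 against 0.290 CPM in library C, from 10 and 6 UMIs in the lower class. In library C the Dlk1 interval lay above those of Meg3 and Rian.

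Under the size rule, at least 2-fold on CPM plus 1 with at least 20 CPM in either class, 2 of the 4 genes could be called in library B, and 3 of the 4 in library C. Each of these was higher in the Retnla class of at least 1%. Of all genes that could be called, 2.36% were higher in library B (115 of 4878) and 2.07% in library C (98 of 4738), and 1.62% were higher in both (73 of 4512); lower were 3.57%, 2.64% and 1.97%. Over all genes tested the median log2 fold was -0.13 in library B and -0.07 in library C. The log2 folds on this scale were 2.37 and 3.02 for Meg3 and 2.28 and 2.94 for Rian, in libraries B and C, and 3.67 for Dlk1 in library C. By log2 fold Meg3 stood at place 24 and Rian at place 29 from the top in library B, and Dlk1, Meg3 and Rian at places 12, 19 and 20 in library C. Dlk1 in library B (log2 fold 1.53) and Mirg in both (2.06 and 2.49) stayed under 20 CPM. Because the genes were picked for these differences, the counts describe them and support nothing further.

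Other measures moved with the Retnla classes. ATI markers summed to 954 against 2303 CPM in library B and to 1519 against 3239 CPM in library C, and 5 of the 6 that could be called in both were lower in both in the class of at least 1%. Transitional markers, keratins and other genes of cells on the way from ATII to ATI, were lower in both libraries for 6 of 9. Proliferation markers gave 0 calls among 10, near the background of 1.62% higher and 1.97% lower in both libraries. Their sums were 601 against 1049 CPM in library B and 934 against 933 CPM in library C. The median log2 fold of these markers in library B was -0.73, a shift that the size rule does not call. Airway secretory markers were higher for 2 of the 2 that could be called, summing to 192 against 43.6 and 88.0 against 18.1 CPM. Of the goblet markers only Bpifb1, an airway secreted protein, could be called, at 24.5 against 2.91 CPM and 31.5 against 0.193 CPM. Malat1, a nuclear RNA used as a sign of RNA quality, read 5599 against 7267 CPM and 3968 against 6865 CPM. The part of these in the difference of the locus transcripts was not tested; without the 25% of cells highest in ATI markers the log2 fold of Meg3 was 1.94 in library B and 2.76 in library C.

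Few genes around the locus had counts that allowed a call. Within 1 Mb on either side of the span from Dlk1 to Mirg the annotation lists 153 other genes, of which 38 held a UMI in library B or C and 4 reached 20 CPM, with 0 called in either direction and medians of -0.30 and -0.16 on the log2 scale. With 1.62% of all genes called higher and 1.97% lower in both libraries, 0 of 4 is near the background. Those 4 were Yy1, a zinc finger factor upstream of Dlk1 (log2 folds -0.47 and -0.32 in libraries B and C), and, on the far side, the phosphatase subunit Ppp2r5c (-0.12 and -0.06), the dynein heavy chain Dync1h1 (-0.12 and 0.02) and the chaperone Hsp90aa1 (-0.82 and -0.27). Between Rian and Mirg the provisional transcript model Gm37899, picked out here for its values, gave 1.80 and 2.26 from 181 and 196 UMIs in the 2 libraries and stayed under 20 CPM. Rtl1, the other paternal protein gene, held 36 UMIs against 1 in library B and 30 against 1 in library C. Dio3, the paternal gene at the far end of the imprinted domain, held 107 UMIs in library A and 0 in libraries B and C.

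**Figure D3:**
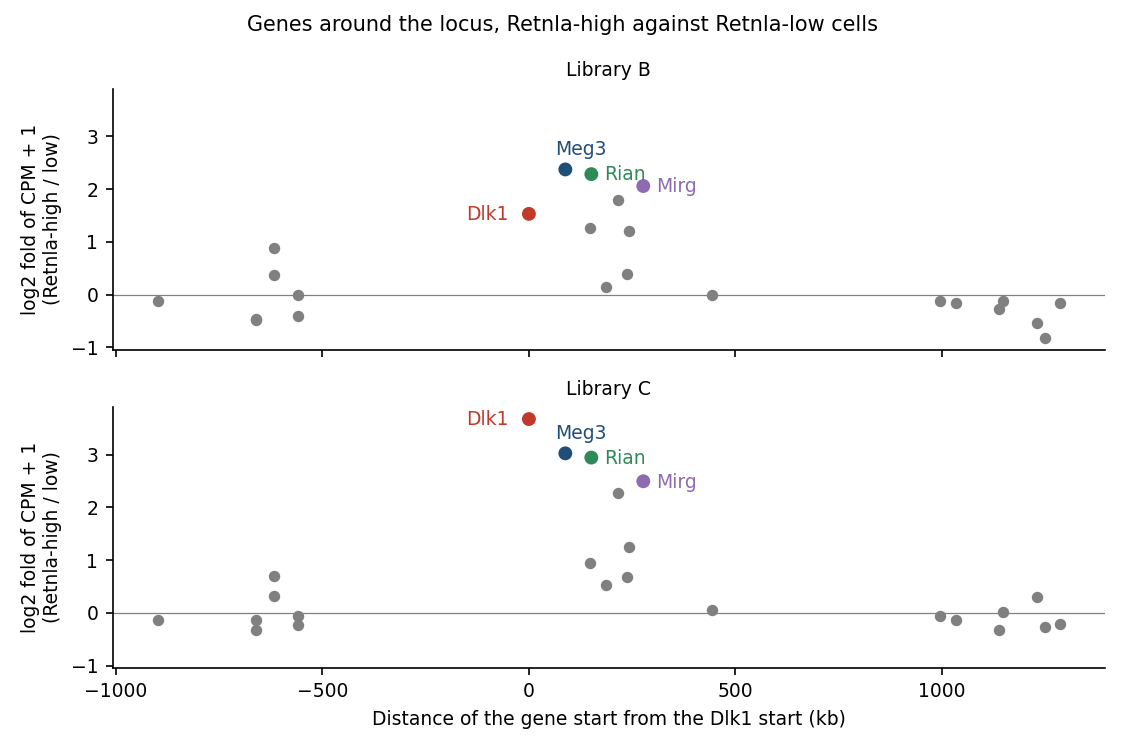
Log2 fold of CPM plus 1 between cells with at least 1% Retnla and cells under 0.1%, against the distance in kb of each gene's start from the start of Dlk1, for genes with 20 or more UMIs in libraries B and C together (grey, other genes). Meg3 lies at 2.37 and 3.02 in libraries B and C, while Yy1 and Hsp90aa1 on either side lie at -0.47 and -0.82 in library B.

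Of 31 listed imprinted genes at other places in the genome, 7 could be called in both libraries. Medians were -0.33 over the 7 that could be called in library B and -0.23 over the 8 in library C. The count called in both was 0, near the background of 1.62% higher and 1.97% lower. Cdkn1c, a maternally expressed inhibitor of the cell cycle, read 8.17 against 27.1 CPM in library B and 10.6 against 22.0 CPM in library C, and Nnat read 25.6 against 125 CPM and 92.6 against 129 CPM; both were lower by the size rule in library B alone. Igf2r, Gnas and Ube3a stayed within log2 folds of -0.46 and 0.05. The highest of the 7 log2 folds was that of H13, named here for its value, at 0.07 in library B and 0.28 in library C.

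Genes of the Notch pathway, to which Dlk1 is related, gave 0 calls among 6 of 32 that could be called in both libraries, with medians of 0.10 and 0.04. That count too is near the background of 1.62% higher and 1.97% lower. The pathway's target Hes1, a transcriptional repressor, read 70.9 against 65.3 CPM in library B and 94.6 against 94.2 CPM in library C. Rbpj, the DNA-binding partner of cut Notch receptors, gave log2 folds of -0.33 and -0.40, and its paralog Rbpjl 0.12 and 0.22. The receptor Notch2 held 9.20 and 9.15 CPM over all cells of libraries B and C, and Notch1 0.904 and 0.956 CPM. Within the Retnla class of at least 1% of library C, Hes1 read 95.4 CPM in 7214 cells without Dlk1 (interval 91.8 to 99.1) and 83.3 CPM in 117 cells with 4 or more Dlk1 UMIs (interval 60.8 to 111), and a difference was not detectable at this depth.

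Co-detection was measured as the share of cells with both transcripts divided by the product of their separate shares, so 1 is the value of detection without a link and a value under 1 would be exclusion. The ratio cannot exceed 1 divided by the larger share. Thinned, Meg3 was found in 17.95% of cells in library C and 29.5% in library B, so values above 1 do not share a scale between libraries. With cells thinned to 2000 UMIs, Dlk1 and Meg3 gave 2.25 in library C (125 cells against a product of 55.6, interval 1.87 to 2.68) and 1.47 in library B (11 cells against 7.67, interval 0.716 to 2.56). The interval for library B includes 1. Cell counts given beside thinned values are means over all thinnings, rounded to whole cells. Without thinning Dlk1 and Meg3 gave 2.20 and 1.25. Meg3 and Rian gave 3.34 in library C (interval 3.01 to 3.70) and 2.07 in library B (interval 1.81 to 2.35), and Meg3 and Mirg 3.11 and 2.20. Dlk1 and Rian gave 2.99 in library C (interval 2.14 to 4.05) and 0.904 in library B, where the interval of 0.144 to 4.30 includes 1.

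Counted directly, 225 cells of library C held both Dlk1 and Meg3, 209 Dlk1 alone, 3216 Meg3 alone and 10930 neither. In library B the counts were 39, 22, 2821 and 2711. Of the cells of library C with both, 93.3% had at least 1% Retnla, as did 81.8% of those with Dlk1 alone, 82.1% of those with Meg3 alone and 41.8% of those with neither. Median depths were 4373, 3638, 4190 and 3121 UMIs in the same order. In library B, cells with neither had at least 1% Retnla in 29.9% of cases and cells with both in 61.5%.

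Both transcripts were found more often in cells with Retnla, so the measure was repeated within the class of at least 1%. Thinned, Meg3 was found in 28.0% of this class in library C and 38.2% in library B. The highest possible ratio with Meg3 was therefore lower than over all cells. Dlk1 and Meg3 then gave 1.52 in library C (116 cells against 76.4, interval 1.26 to 1.82) and 1.14 in library B (7 against 5.89, interval 0.478 to 2.44). Meg3 and Rian gave 2.20 (interval 1.97 to 2.46) and 1.64 (interval 1.38 to 1.94). Dlk1 and Rian gave 1.96 in library C (38 cells against 19.5, interval 1.38 to 2.67), and in library B only 1 cell against 1.39. Dlk1 and Mirg gave 1.39 in library C, with an interval of 0.360 to 3.38 that includes 1. Within the class, values above 1 for Dlk1 with Meg3 and with Rian were thus seen in library C and were not detectable in library B at its count of cells with Dlk1.

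Amounts went with detection in library C. In cells with at least 1% Retnla, Meg3 read 269 CPM where Dlk1 was not found (7214 cells, interval 263 to 276), 420 CPM with 1 UMI of Dlk1 (138 cells, interval 367 to 478), 425 CPM with 2 to 3 (126 cells, interval 372 to 484) and 504 CPM with 4 or more (117 cells, interval 445 to 567). In library B the same classes read 391.7, 415, 663 and 399 CPM over 2274, 21, 6 and 9 cells. The intervals of the classes with Dlk1 in library B were wide, and only that of 6 cells with 2 to 3 UMIs (459 to 927) lay above the class without it. The highest of those 6 cells held 15 of their 34 Meg3 UMIs, a clumping that the interval does not cover. Over all cells of library B, whatever their Retnla, the classes read 306, 341, 458 and 914 CPM over 5532, 34, 11 and 16 cells. Intervals were 301 to 311 and 781 to 1063 CPM in the first and last. In the last class 1 cell held 61 of the 168 Meg3 UMIs. Median depth in library C was 3607, 3853.5, 4065.5 and 4270.0 UMIs along the classes, so cells with more Dlk1 were also deeper.

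**Figure D4:**
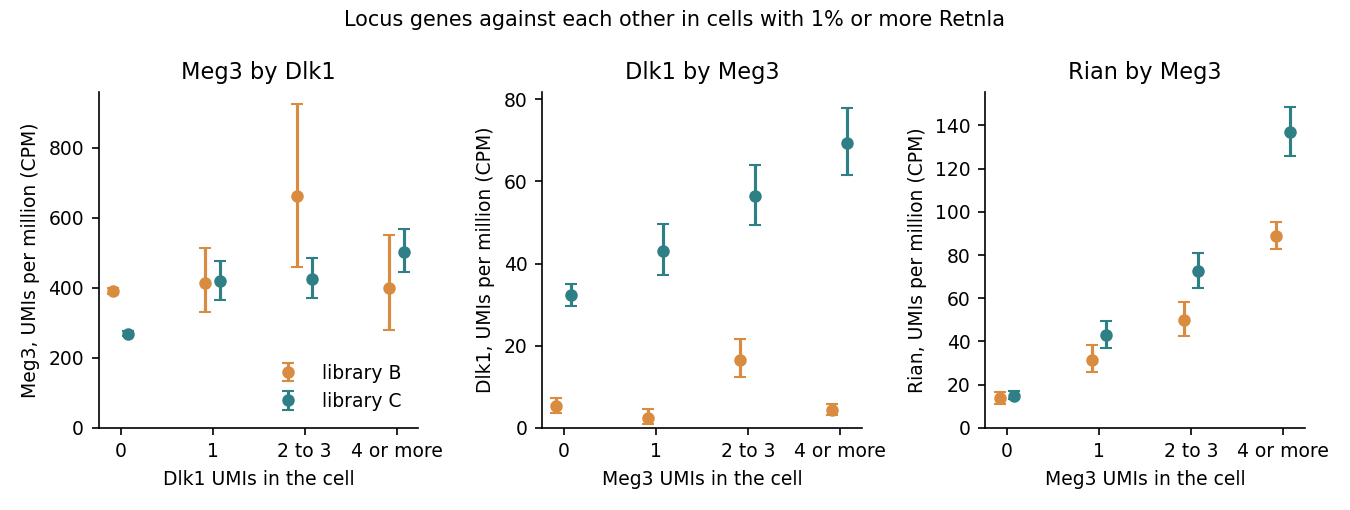
Level in UMIs per 1000000 of Meg3 by the number of Dlk1 UMIs in the cell (left), of Dlk1 by Meg3 UMIs (middle) and of Rian by Meg3 UMIs (right), in cells with at least 1% Retnla of library B and library C; bars are exact 95% Poisson intervals and axes start at 0. Rian goes from 14.97 to 137 CPM along the Meg3 classes in library C, and Dlk1 from 32.2 to 69.4 CPM.

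Read the other way, Dlk1 in these cells of library C stood at 32.2, 43.0, 56.3 and 69.4 CPM where Meg3 had 0, 1, 2 to 3 and 4 or more UMIs, and the intervals of the lowest and highest class (29.6 to 35.1 and 61.6 to 77.9) were apart. In library B it stood at 5.30, 2.28, 16.5 and 4.27 CPM with no order, and 3 cells held 96.2% of the Dlk1 UMIs of the 2 to 3 class. Rian stood higher in each successive Meg3 class of both libraries, with 13.7, 31.6, 49.9 and 89.0 CPM in library B and 14.97, 43.0, 72.5 and 137 CPM in library C. Rian also stood at 109 CPM in the 117 cells of library C with 4 or more Dlk1 UMIs, against 42.6 CPM without Dlk1. In library B the 9 cells with 4 or more Dlk1 UMIs held 0 UMIs of Rian (interval 0 to 39.8 CPM), beside 51.9 CPM in cells without Dlk1. Over all cells of library B the 16 cells with 4 or more held 12 UMIs of Rian, 65.3 CPM (interval 33.7 to 114). Only 2 of the 16 cells held Rian, and 1 of them held 11 of the 12 UMIs. Cells without Dlk1 read 38.4 CPM, and a difference was not detectable at this depth.

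Cells of this class that held 4 or more Dlk1 UMIs in library C kept the ATII transcript Sftpc at 99092 CPM, against 122242 CPM without Dlk1, and had ATI markers at 1074 against 1542 CPM. Their transitional markers summed to 1844 against 1909 CPM, and their median Retnla share was 3.62% against 3.79%. Fibroblast and neuroendocrine markers were at 0 in them. Smooth muscle or pericyte markers summed to 5.55 against 1.07 CPM, which is very few UMIs among the 540216 that these cells held in all. The part of these markers in the levels of Dlk1 was not tested. Across the Meg3 classes of library C, Sftpc read 130190, 116691, 110470 and 101037 CPM, ATI markers 1833, 1368, 1068 and 883 CPM, and proliferation markers 732, 906, 1162 and 1546 CPM. Malat1 read 3080, 3788, 5067 and 6609 CPM along the same classes, and their median depth 3249, 3774.5, 4270.0 and 5142 UMIs. The part of depth and of Malat1 in the link of Meg3 with Rian was not tested.

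To place the locus along the states of ATII cells, the cells of each library were ranked by the share of their UMIs from a marker list and split into 4 equal groups. By ATI markers, Meg3 stood at 318, 214, 98.3 and 36.0 CPM in library C from the lowest to the highest group, and at 401, 361, 298 and 133 CPM in library B. Dlk1 stood at 44.8, 33.0, 14.2 and 4.72 CPM in library C, and Rian at 51.7, 33.5, 13.7 and 4.34 CPM. Retnla went the same way, from 31334 to 10012 CPM in library C and from 16142 to 5669 CPM in library B. In library B Dlk1 held 3.83, 3.62, 3.85 and 5.96 CPM with overlapping intervals, so it did not share the order of Meg3 there.

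**Figure D5:**
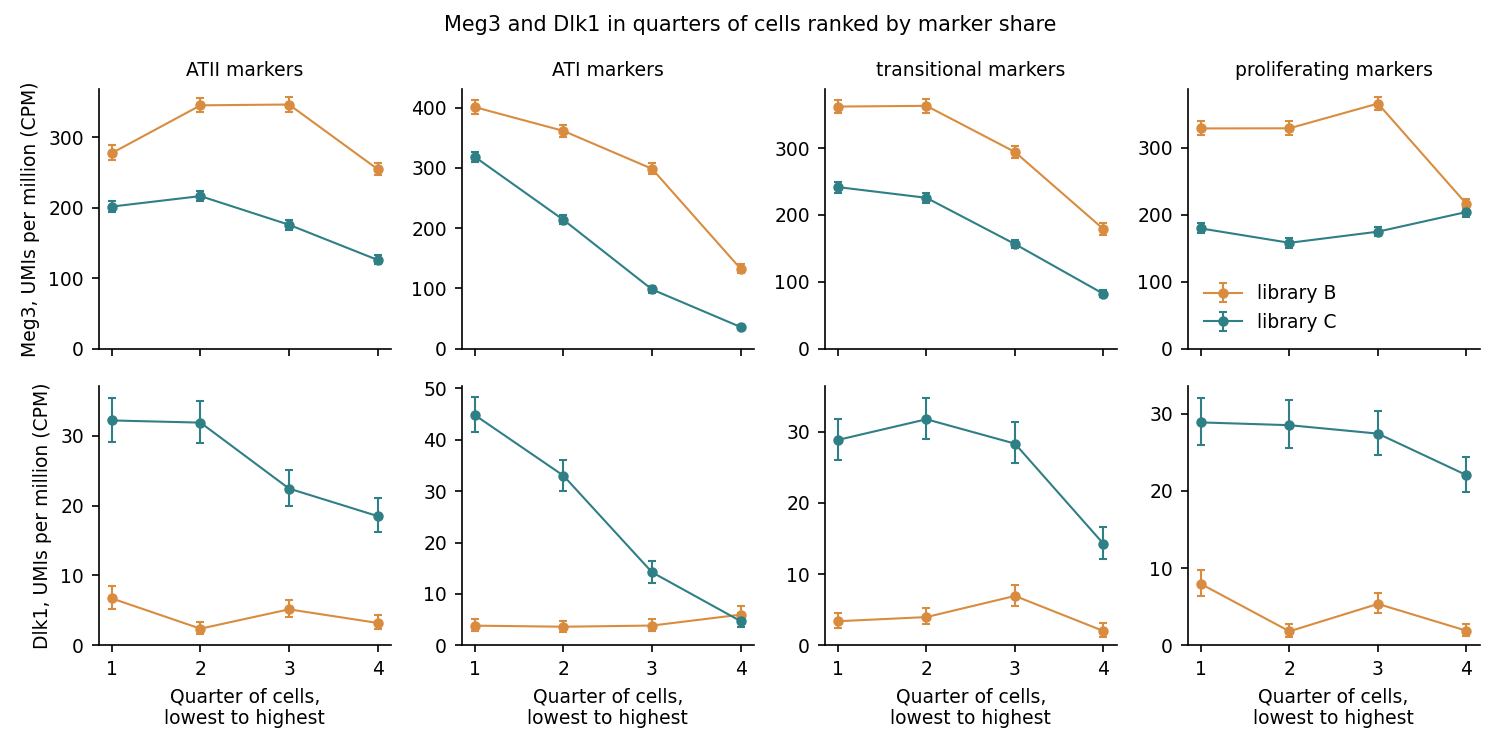
Meg3 (top) and Dlk1 (bottom), in UMIs per 1000000 (CPM) on axes from 0, in 4 equal groups of the cells of library B and library C ranked by the share of UMIs from ATII, ATI, transitional and proliferating marker lists; bars are exact 95% Poisson intervals. In library C the group highest in ATI markers reads 36.0 CPM for Meg3 and 4.72 CPM for Dlk1, the lowest group 318 and 44.8 CPM.

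By transitional markers, Meg3 read 242, 226, 156 and 81.9 CPM in library C and 362, 363, 294 and 179 CPM in library B, and Dlk1 in library C read 28.8, 31.7, 28.3 and 14.2 CPM. The drop of Dlk1 thus lay in the last group. In library A, where Meg3 was scarce, it held 8.32, 8.88, 9.50 and 6.12 CPM over the 4 groups by ATI markers and showed no such order. These rankings share the depth and the Retnla content of the cells, whose parts were not tested.

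Across single cells the transcript most like Meg3 was Rian. Among 5433 genes found in at least 5% of cells of both libraries, Pearson's r of log(1 + UMIs per 10000) with Meg3 was 0.46 in library B (5593 cells) and 0.40 in library C (14580 cells) for Rian. Next came Retnla (0.34 and 0.33), Rgs4, a regulator of G-protein signalling (0.27 and 0.31), the neutrophil chemokine Cxcl5 (0.27 and 0.31) and Pigr, the receptor that carries IgA through epithelium (0.30 and 0.26). The lowest were the ATI marker Ager (-0.30 and -0.25), the actin-binding Tmsb4x (-0.23 and -0.27) and the lysosomal Npc2 (-0.22 and -0.22). These describe cells that share a library and differ in depth, and no p-value is attached.

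Within the class of at least 1% Retnla the order shifted. Rian stayed first at 0.43 and 0.37 (2310 and 7595 cells), followed by the nuclear RNA Malat1 at 0.42 and 0.34, the phosphodiesterase Pde4d at 0.31 and 0.26, the ankyrin Ank3 at 0.30 and 0.25 and St6galnac3 at 0.26 and 0.25. For Retnla itself the value was -0.09 and -0.03. For Dlk1 the values over all cells were too small to rank genes by. Hdc, the enzyme that makes histamine, came first by the lower value of libraries B and C, at 0.08 and 0.07. Trf (0.06 and 0.12), Lrg1 (0.05 and 0.07), Pf4 (0.05 and 0.14) and Fxyd4 (0.04 and 0.05) came next. The lowest were Bri3 (-0.04 and -0.04), Bcam (-0.04 and -0.03) and Lgals3 (-0.03 and -0.06). Meg3 stood at 0.04 and 0.12.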

How the data were processed

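Whole-number unique molecular identifier (UMI) counts per gene and barcode were deposited by the authors as 1 matrix, unnormalised. The submitters' processing notes name bcl2fastq, Cell Ranger 6.0.1, GRCm38 and mm10; the annotation release, cell calling, doublet removal, strand and intron settings and assignment to mice are not given in the sources used here. Ensembl IDs were named from the GENCODE annotation of GRCm38 (52403 of 52636; the 233 unnamed hold 0.0209% of UMIs).

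Cells with at least 1000 UMIs, 500 genes and at most 15% mitochondrial UMIs were kept (36540 of 36584); doublets were not removed. Counts were summed over cells and scaled to UMIs per 1000000 (CPM). Folds are log2 ratios of CPM plus a pseudocount of 1 CPM, and the size rule asks for a 2-fold difference in either direction and 20 CPM in either class. No test was run. Intervals are exact 95% intervals, Poisson for levels, conditional for ratios of counts and Clopper-Pearson for shares, and cover counting error only. Thinning gives each cell's exact probability of holding a UMI among 2000 drawn from it, leaving out shallower cells. Calculations were checked on simulated data.

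Named genes were the 4 locus genes and up to 4 per list past the size rule in the same direction in both libraries. List genes that set a limit on a member were named too. So were the 5 highest and 3 lowest correlations with Meg3 and with Dlk1 over all cells. Within the class of at least 1% Retnla only the 5 highest with Meg3 were named. The highest were ranked by the lower value of libraries B and C, the lowest by the higher. The locus genes, lists and settings were chosen with earlier results of these data known. The tag libraries were not used here. Tools were Python 3.11.15, numpy 2.4.6, scipy 1.17.1, pandas 2.3.3, matplotlib 3.10.9 and edgeR 4.0.16 in R 4.3.3.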

Additional observations from a re-analysis of the deposited data

How the results depend on the processing

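Of 236 alternative values, 191 moved by less than the counting interval (for counts of genes, by less than 1.5 times), 45 moved further and 0 reversed. Counts of genes and library levels have no direction, so only folds and co-detection ratios could have reversed. Those on proliferating, transitional and ATI markers, without the cell with most Dlk1 UMIs, on library levels and on Rian and Mirg were chosen after seeing the data. The log2 fold of Dlk1 in library B, 1.53 in the main setting, ranged from 0.78 to 1.99. Each shift was smaller than the reach of its wide interval on that side. The lowest values lay below the interval itself, which without a pseudocount was 1.32 to 2.91. A single division at 0.5% Retnla gave log2 folds of Meg3 of 1.23 (library B) and 2.59 (library C), and 50 genes higher and 89 lower in library B. The upper against the lower of 3 equal groups by Retnla gave Meg3 1.80 in library B, and TMM factors 2.52. Cells with 0 proliferation UMIs gave Meg3 1.94 and 2.85 and 281 genes lower in library B. Without the 25% of cells highest in ATI markers Meg3 gave 1.94 and 2.76, and without that highest in transitional markers 50 genes were lower in library C. A pseudocount of 5 CPM gave Dlk1 2.68 and Meg3 2.88 in library C. With no filter on low values 269 genes were higher and 467 lower in library B, against 246 and 308 for library C; at 50 CPM, 56 and 94, and 46 and 70; at 1.5-fold, 257 and 521, and 211 and 321. Co-detection of Dlk1 and Meg3 in library C was 1.87 at 3000 UMIs, 1.52 at 1% Retnla or more and 4.11 under 0.1%. That last value came from a rounded mean of 2 cells with both, against 4 cells without thinning. Without the 5% of cells with most UMIs, levels were 6.67 CPM for Meg3 in library A, 3.35 for Dlk1 and 301 for Meg3 in library B, and 168 for Meg3 and 26.2 for Rian in library C; at 2000 UMIs or more Meg3 in library C was 185 CPM. The causes of these shifts were not tested, apart from the gene counts that follow from wider or narrower thresholds.

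Each group has 1 library, so leaving out a replicate was not possible. No paired analysis was possible because no library maps to a labelled group and no test was run. Depth limits Dlk1 in library B, where 16 UMIs stand behind the class with little Retnla, and Mirg in both libraries, with 10 and 6.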

Other observations

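Library A, in which the locus transcripts were scarce, held a few cells that stood out. Dlk1 was found in 8 of its 16367 cells, of which 3 held 20, 10 and 9 UMIs and 5 held 1 each. The 3 high cells also held Meg3, with 4, 2 and 3 UMIs, and 1 of the others held 6. Each of the 8 held between 666 and 1877 UMIs of the ATII transcript Sftpc. Neuroendocrine, fibroblast, smooth muscle or pericyte and immune markers were at 0 in all 8, and airway secretory markers held between 0 and 6 UMIs. An endothelial UMI was found in the cell with 9 Dlk1 UMIs. A cell with 1 Dlk1 UMI held 1 endothelial and 1 ciliated UMI. The cell with 20 Dlk1 UMIs held 23 Retnla UMIs, and the other 7 held 0.

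Meg3 in library A was likewise gathered in few cells: 70 cells with 3 or more UMIs held 72.2% of its UMIs. Since these cells were picked for Meg3, the other transcripts in them are the observation. Rian read 236 CPM in the 70 cells and 0.302 CPM in the 16187 cells without Meg3, and Mirg 20.4 and 0.0159 CPM. ATII markers summed to 293327 and 336075 CPM, airway secretory markers to 3375 and 2567 CPM, and median depth was 4887.5 and 3743 UMIs. Retnla read 116 and 26.9 CPM. Whether these cells share an animal is unknown.

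Genes that maintain imprints gave 0 calls among 4 of 16 that reached 20 CPM in both libraries between cells with at least 1% and under 0.1% Retnla, near the background of 1.62% higher and 1.97% lower. The maintenance methyltransferase Dnmt1 read 21.8 against 29.4 CPM in library B and 25.9 against 27.4 CPM in library C, and Trim28, a corepressor of imprinted regions, 22.7 against 34.0 CPM and 35.3 against 37.0 CPM.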
